A study of Homo sapiens with 4 samples.

Results

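The genes described are 5 growth factor ligands and 4 receptor tyrosine kinases: KITLG with its receptor KIT, PDGFA, PDGFB and PDGFC with the receptors PDGFRA and PDGFRB, and CSF1 with its receptor CSF1R. They were taken by gene symbol from the array's platform annotation, which gave 19 of the 47321 probes and 9 of the 20046 named genes. They were chosen with the signals of these same arrays known, KITLG's large difference among them. Their differences between the groups are therefore a description, with no test. The samples are GFP-positive cells, called cancer stem-like in the labels, and GFP-negative cells, called non-stem-like, both from MDA-MB453, a human breast cancer line (GFP, green fluorescent protein). Both fractions were grown in DMEM with serum, and no treatment is named. The labels do not name the promoter in front of GFP. A single line was used, and in such bulk RNA fewer cells expressing a gene and less RNA per cell cannot be told apart. Each group had 2 bead arrays. The series text describes RNA of the pairs as isolated on different days and also says that 2 batches were combined, without saying whether RNA was pooled before hybridisation. The spread between arrays of a group, and the pairing by day, may therefore not be those of separate isolations.

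Each of these receptors sits in the cell membrane and is brought together in pairs by a dimeric ligand, after which its kinase domain phosphorylates the receptor tail and adaptor proteins bind there. KIT serves blood progenitors, mast cells, germ cells and melanocytes. PDGF receptors act mainly in fibroblasts, pericytes and other mesenchymal cells, while epithelial and tumour cells often make the ligands. CSF1R is the receptor that macrophages need to survive. The receptor genes lie in a pair of clusters: in RefSeq's GRCh38.p14 gene table, PDGFRA and KIT are neighbouring protein-coding genes on chromosome 4, with KDR next, and CSF1R and PDGFRB are neighbours on chromosome 5. The ligand genes are scattered over chromosomes 12 (KITLG), 7 (PDGFA), 22 (PDGFB), 4 (PDGFC) and 1 (CSF1).

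GFP-positive cells had bright signal for KITLG, which was near background in GFP-negative cells, and somewhat more signal for PDGFB and PDGFA. PDGFC went the other way, being bright in GFP-negative cells. None of the 4 receptors and no CSF1 probe was detected on both arrays of either group, so no ligand of the set was measured beside a measurable receptor of its own. A probe counts as detected where its detection p, its rank among the negative controls of the same array, is under 0.05. The lowest signal of a detected probe was 200 and 221 on GFP-positive replicates 1 and 2, and 209 and 208 on GFP-negative replicates 1 and 2.

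**Figure D1:**
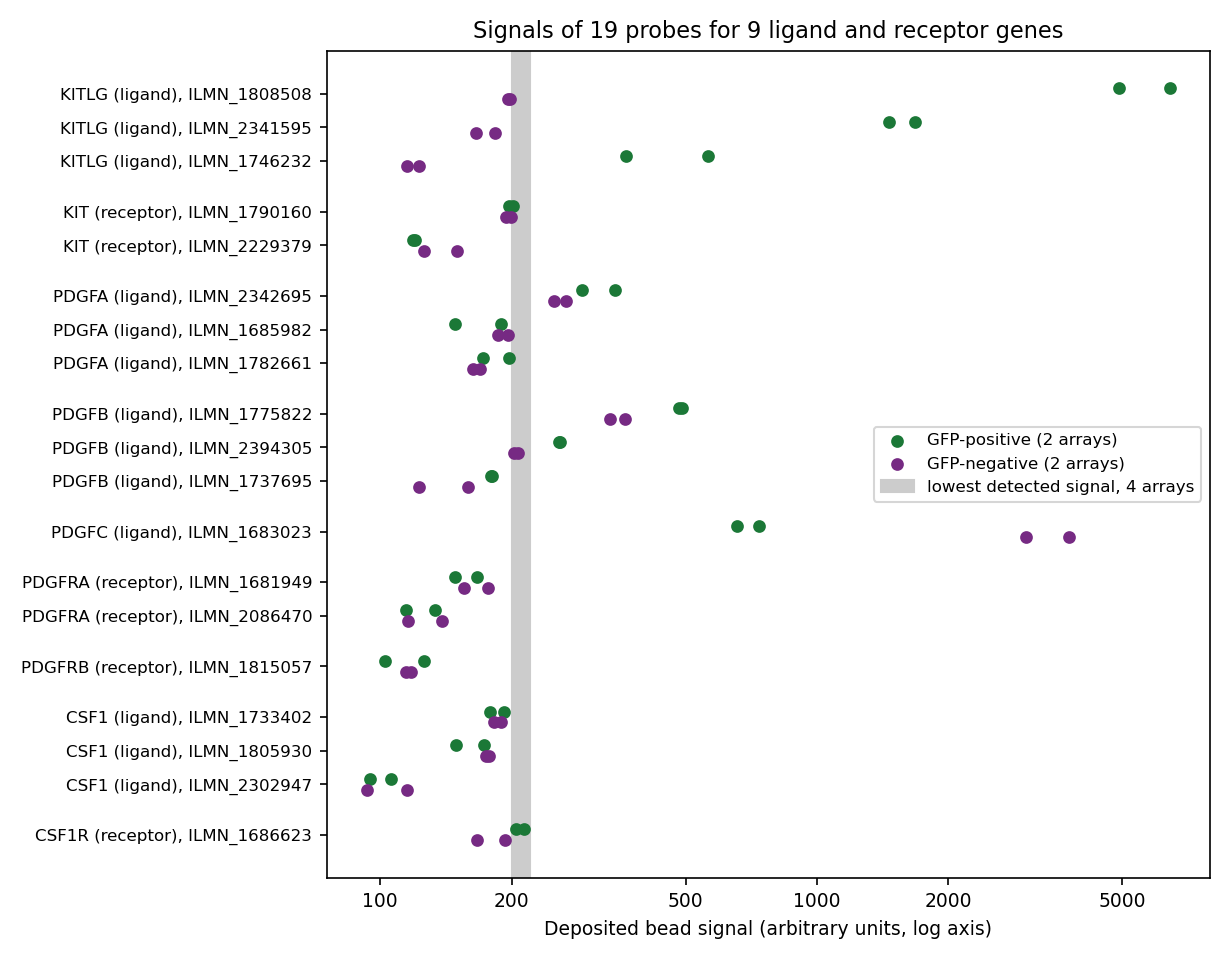
Deposited bead signal (log axis, arbitrary units) of the 19 probes, 1 row a probe, with the 2 GFP-positive arrays in green above the 2 GFP-negative arrays in purple. The grey band spans the lowest detected signal of the 4 arrays. The 3 KITLG probes lie to the right of the band on the GFP-positive arrays only, PDGFC lies to the right in both groups, and the receptor probes lie at the band or left of it.

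Signals were checked against the line and against other cell types. Medians of the deposited signal lay between 178 and 192, and between 36.8% and 38.5% of probes were detected per array. Of 9 marker genes of the line with a probe, 7 were detected on both arrays of at least 1 group. ERBB2, EPCAM, KRT8, FOXA1 and XBP1 were detected on every array, KRT18 on all but 1, SPDEF on the GFP-negative arrays only, GATA3 on none, and TFAP2B on 1 GFP-negative array. No gene of the mast cell list (7 with a probe), the melanocyte list (5) or the endothelial list (6) was detected on both arrays of a group. Of 10 monocyte and macrophage genes CD14, CD68 and AIF1 were. By their brightest probes, CD163 and FCER1G were detected on 1 GFP-negative array each, and ITGAM and SPI1 on 1 GFP-positive array each. PTPRC, the pan-leukocyte antigen, TYROBP and LYZ were detected by theirs on no array. Of 10 fibroblast and pericyte genes 5 were detected on both arrays of a group. COL1A1, COL1A2 and COL3A1 were at least 1.89-, 3.95- and 5.92-fold lower in GFP-positive cells after background correction (1.35-, 2.01- and 2.75-fold without it). CSPG4 and ACTA2 were at least 1.44- and 13.5-fold higher (1.17- and 5.28-fold without it). Each had 0 or 1 array of its dim group detected. By their brightest probes, RGS5 was detected on 1 array of each group, and DCN, LUM, THY1 and FAP on no array. The summed signal of that list was 2601 and 3132 on the GFP-positive arrays, against 2421 and 2827 on the GFP-negative arrays. The sums include background signal of undetected genes and hide opposite directions. ACTA2 alone had 828 and 1372 on the GFP-positive arrays, against 214 and 189 on the GFP-negative arrays, while the 3 collagens were lower in GFP-positive cells. Of the 7 tested markers of the line, 4 differed as well (limma, adjusted p under 0.05), where 42.6% of all tested genes did. KRT8 was 36.3-fold and EPCAM 1.52-fold higher in GFP-positive cells, while ERBB2 and FOXA1 had log2 differences of -1.46 and -0.94. The other 3, KRT18, XBP1 and SPDEF, did not pass. The part of these markers in the differences of the ligands was not tested.

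KITLG encodes stem cell factor, the only known ligand of KIT, made as a membrane-bound protein that can be shed. Its brightest probe, ILMN_1808508, had deposited signals of 4923 and 6416 in GFP-positive cells, against 198 and 196 in GFP-negative cells. The second, ILMN_2341595, had 1461 and 1675 in GFP-positive cells, against 183 and 165 in GFP-negative cells. The third, ILMN_1746232, had 366 and 563 in GFP-positive cells, against 123 and 115 in GFP-negative cells. All 3 probes were detected on both GFP-positive arrays and on neither GFP-negative array. The groups did not overlap for any of them, as for 72.6% of all tested probes. After background correction and normalization the brightest probe's log2 signal was 12.52 ± 0.26 in GFP-positive cells and 5.93 ± 0.03 in GFP-negative cells (SD, n = 2 each). Since the GFP-negative arrays give only an upper limit, the differences are bounds, and their size depends on the background correction. On the corrected scale the 3 probes were at least 84.4-, 22- and 4.56-fold higher. Without background correction they were at least 28.8-, 8- and 2.22-fold higher. Each probe was brighter on the GFP-positive array in both replicate pairs.

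KIT, the receptor of KITLG, is represented by 2 probes. ILMN_1790160 had signals of 197 and 202 in GFP-positive cells, against 200 and 194 in GFP-negative cells, with detection p-values of 0.0649 and 0.125 in GFP-positive cells and 0.105 and 0.126 in GFP-negative cells. ILMN_2229379 had 120 and 119 in GFP-positive cells, against 150 and 126 in GFP-negative cells, with detection p-values from 0.627 to 0.887. Neither probe was well above background on any array. The first lay close to the detection limit in both groups, where the groups overlapped. The second lay well below it, with the groups not overlapping and the GFP-negative signals higher. Groups also did not overlap for 72.6% of all tested probes, and the share among untested probes was not worked out. A low level of KIT RNA is not detectable at this signal, so these values set no lower limit.

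The sequences before the start sites of this pair are shown because KITLG separates the groups most and KIT was measured in neither. They are the 250 bases upstream of the RefSeq start, GRCh38.p14, 5′ to 3′ on the gene's strand, from chr12:88580472-88580721 (minus strand) and chr4:54657707-54657956 (plus strand). Capitals mark the GC box (GGGCGG or CCGCCC) and the TATA box (TATAAA or TTTATA). The AP-1 letters TGANTCA were searched too and are in neither. All motifs were searched on both strands, and no matches overlap.
KITLG: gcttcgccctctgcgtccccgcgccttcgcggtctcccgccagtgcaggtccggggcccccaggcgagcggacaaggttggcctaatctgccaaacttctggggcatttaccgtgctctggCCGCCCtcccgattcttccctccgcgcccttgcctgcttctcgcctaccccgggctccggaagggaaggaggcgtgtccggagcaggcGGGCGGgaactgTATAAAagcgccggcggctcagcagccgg
KIT: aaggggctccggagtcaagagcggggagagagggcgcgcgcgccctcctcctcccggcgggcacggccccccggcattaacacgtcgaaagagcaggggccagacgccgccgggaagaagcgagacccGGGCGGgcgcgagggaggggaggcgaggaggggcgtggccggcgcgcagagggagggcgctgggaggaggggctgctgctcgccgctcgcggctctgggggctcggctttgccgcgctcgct

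KITLG's window holds 26 CpG dinucleotides and KIT's 34, against a median of 11 over 35116 promoters of the same length, and 80.4% and 93.2% of those promoters hold fewer. GC boxes numbered 2 for KITLG and 1 for KIT, in a motif that 42.6% of all promoters hold. TATA box letters were found once, for KITLG, and in 10.7% of all promoters. Of the other members, PDGFA had 17 CpG and PDGFRA, PDGFRB and CSF1R had 8, 9 and 6. No promoter sequence was available for PDGFB, PDGFC and CSF1, so none of these counts covers them. The AP-1 letters, held by 6.57% of all promoters, were found once each for PDGFRA and CSF1R. These are descriptions of the windows only.

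PDGFB and PDGFA encode chains that pair into PDGF dimers. PDGFB binds both receptors and PDGFA binds PDGFRA. The brightest PDGFB probe, ILMN_1775822, had signals of 492 and 484 in GFP-positive cells, against 363 and 336 in GFP-negative cells. ILMN_2394305, which the platform assigns to another PDGFB transcript, had 257 and 256 in GFP-positive cells, against 207 and 203 in GFP-negative cells, where it was not detected. Neither probe's groups overlapped, which also held for 72.6% of all tested probes. In normalized log2 signal the brighter probe stood at 8.47 ± 0.11 in GFP-positive cells and 7.66 ± 0.29 in GFP-negative cells (SD, n = 2 each), a 1.75-fold difference. The other was at least 1.62-fold higher, and at least 1.23-fold without background correction. The third PDGFB probe was detected on no array.

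PDGFA had 1 detected probe, ILMN_2342695, with signals of 290 and 344 in GFP-positive cells, against 250 and 266 in GFP-negative cells. The groups did not overlap, but in deposited signal the gap between them was smaller than the spread of the GFP-positive arrays. On the normalized log2 scale the gap was the larger, with 7.29 and 7.59 in GFP-positive cells, against 6.86 and 6.84 in GFP-negative cells. Its log2 signal was 7.44 ± 0.21 in GFP-positive cells and 6.85 ± 0.01 in GFP-negative cells (SD, n = 2 each), a 1.51-fold difference, with pair differences of 0.43 and 0.75. The other 2 PDGFA probes were detected on no array and did not share a direction, with normalized log2 means of 5.50 and 5.72 in GFP-positive cells, against 5.84 and 5.47 in GFP-negative cells.

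PDGFC encodes a latent factor whose CUB domain must be cut off before it can bind PDGFRA. Its single probe, ILMN_1683023, had signals of 655 and 736 in GFP-positive cells, against 3009 and 3769 in GFP-negative cells. It was detected on all 4 arrays and is the only ligand of the set that was higher in GFP-negative cells, where the groups lay far apart. Log2 signal was 9.17 ± 0.08 in GFP-positive cells and 11.56 ± 0.17 in GFP-negative cells (SD, n = 2 each). GFP-negative cells thus had 5.26 times the signal of GFP-positive cells, with log2 differences (GFP-positive minus GFP-negative) of -2.33 and -2.46 within the replicate pairs.

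**Figure D2:**
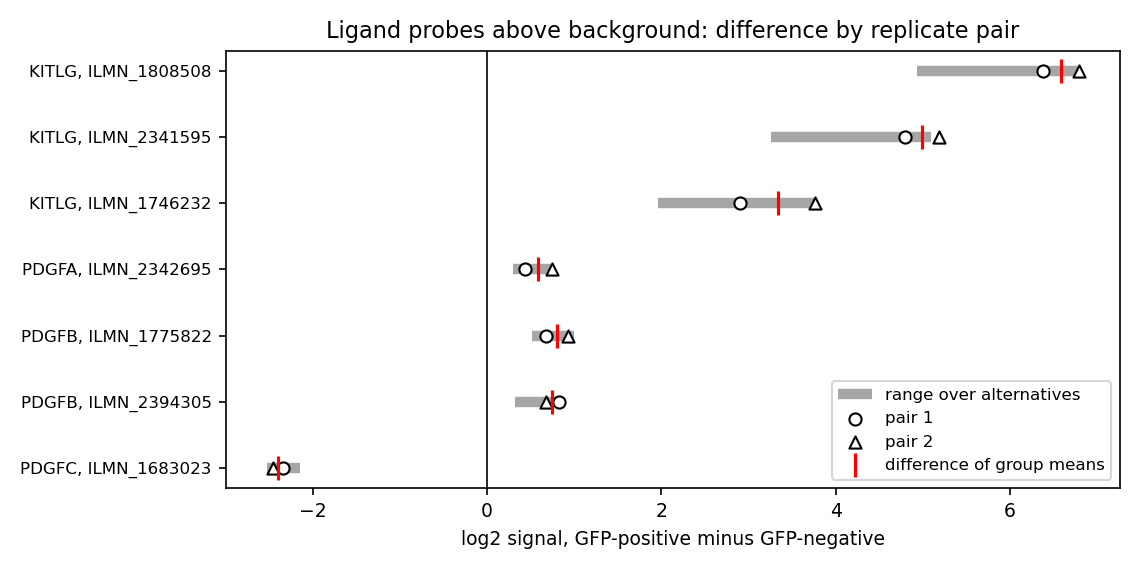
Log2 difference, GFP-positive minus GFP-negative, of the 7 ligand probes above background. Red ticks are the differences of the group means, open circles and triangles those within replicate pairs 1 and 2, and grey bars the range over the alternative processings. Values of the KITLG probes and of ILMN_2394305 are fitted against GFP-negative arrays below detection and are not bounds. The KITLG and PDGFC probes stand furthest from 0, and PDGFA and PDGFB lie between 0.30 and 1.00 under every alternative run.

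The PDGF receptors were not measurable. PDGFRA's brighter probe had signals of 166 and 148 in GFP-positive cells, against 176 and 155 in GFP-negative cells, and its other probe 115 and 134 in GFP-positive cells, against 116 and 139 in GFP-negative cells. PDGFRB's only probe had 103 and 126 in GFP-positive cells, against 115 and 118 in GFP-negative cells. Detection p-values of these 3 probes ran from 0.321 to 0.953, and the groups overlapped for each.

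CSF1, the macrophage growth factor, had 3 probes, all below detection, with signals from 94.9 to 192 in GFP-positive cells and from 93.2 to 189 in GFP-negative cells. CSF1R, its receptor, came nearest to a detected receptor. Its probe had 205 and 213 in GFP-positive cells, against 193 and 167 in GFP-negative cells, with detection p-values of 0.0325 and 0.0727 in GFP-positive cells and 0.165 and 0.403 in GFP-negative cells. GFP-positive replicate 1 alone was under 0.05, the only such reading among the 24 of the 6 receptor probes. The 2 groups of this probe did not overlap. That held for 2 of the 6 receptor probes and for 6 of the 12 member probes not tested. Among tested probes the share was 72.6%. The share among all untested probes was not worked out, so nothing is read from these counts. No fold is given for CSF1R since 3 of its 4 readings were below detection.

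Set side by side, the KIT pair had a ligand that separated the groups with a receptor at background in both, the PDGF family had 3 measured ligands of which 2 were higher and 1 lower in GFP-positive cells with both receptors at background, and the CSF1 pair had neither partner above background on both arrays of a group. Signals of different probes cannot be ranked against each other, so ligand and receptor levels were compared by detection and direction only. Of 19 probes, 7 passed the detection filter, all of ligands. All 7 passed an adjusted p of 0.05 in the fit over all probes, 6 higher and 1 lower, where 40.5% of 18098 tested probes passed, 18.8% higher and 21.7% lower. Groups did not overlap for 72.6% of tested probes. The genes were chosen on this contrast, so nothing is read from these counts. The PDGFA probe fell outside the threshold when any 1 of the 4 arrays was left out, without background correction (log2 difference 0.30, against 0.59 with it) and without a detection filter. ILMN_1775822 of PDGFB did so without either GFP-positive array, without GFP-negative replicate 2 and without the filter. ILMN_2394305 did so without GFP-positive replicate 1 and without background correction.

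Genes that act with these ligands and receptors were taken from 5 lists, which were chosen with earlier results of these data known. Of 92 genes, 80 had a named probe, 59 were tested, and 23 rose and 9 fell in GFP-positive cells (limma, adjusted p under 0.05). That is 54.2% called, where 42.6% of all 10955 tested genes were called by their brightest probe, 20.3% higher and 22.4% lower. Their median log2 difference was 0.32, and 0.26 with genes near background set at their bounds, against -0.05 over all tested genes. For relatives, processing genes and adaptors alone it was 0.15 (0.30 with bounds), 0.09 and 0.04. Each gene is given by its brightest tested probe. That was the only 1 tested of 5 probes for PIK3R1, and of 3 each for FLT4, PCSK6, GRB7, GAB1 and GAB2. An adjusted p beside a bound is that of the fitted difference, and such genes passed the detection filter only through their bright group. Bounds below are on the background-corrected scale. Without that correction those that moved by over 1.5 times were at least 16.2-fold for SPARC, 8.01 for PLAU, 1.80 for PLAT, 1.45 for PCSK5, 3.17 for JAK1, 3.42 for GRB10, 1.95 for LRIG1 and 2.31 for NRP1.

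Among ligand and receptor relatives, 4 of 14 genes were tested, with 2 higher and 1 lower, that is 75% called, against 42.6% of all tested genes. NRP1, a co-receptor for VEGF and PDGF ligands, was at least 4.51-fold higher, but its GFP-positive arrays differed widely (log2 signal 8.30 ± 1.43, against 5.44 ± 0.20 in GFP-negative cells, adjusted p = 0.00598), and its adjusted p was 0.0548 without GFP-negative replicate 1. The NRP1 bound was 9.17-fold without GFP-positive replicate 1 and 2.26-fold without GFP-positive replicate 2. VEGFA, the main endothelial growth factor, had a log2 difference of 0.78 ± 0.17 (SE, adjusted p = 0.0095), which was 0.0658 and 0.0651 without GFP-positive replicate 1 or 2. Of its 2 tested probes 1 passed. When single arrays were dropped, the list gave 1 higher call for GFP-positive replicate 1, 0 for GFP-positive replicate 2 (1 at an unadjusted p under 0.05, limma) and 1 for GFP-negative replicate 1. FLT4, a receptor for VEGFC and VEGFD, was below detection in GFP-positive cells and at least 1.14-fold lower there (adjusted p = 0.000976). Of the relatives not tested, FLT3, FLT3LG and IL34, the other ligand of CSF1R, were detected on no array by their brightest probes. The same held for KDR, FLT1, VEGFD and NRP2. PDGFD, a further PDGF ligand, and PGF were detected on 1 array of each group, and VEGFC on 1 GFP-negative array. These genes were singled out after their values were seen.

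Enzymes and proteins that release, activate or hold the ligands gave 6 higher and 3 lower of 13 tested. That is 69.2% called, against 42.6% of all tested genes. The largest rise was of SPARC, a matrix protein that binds PDGF, at least 45-fold (log2 signal 11.71 ± 0.20 in GFP-positive cells and 6.06 ± 0.31 in GFP-negative cells, adjusted p = 1.79e-06). SPARC and PLAU were each detected on 1 of the 2 GFP-negative arrays. PLAU and PLAT, the urokinase and tissue plasminogen activators, were at least 21.6- and 3.34-fold higher (adjusted p = 2.55e-06 and 8.31e-05). PLAT is known to cut the CUB domain from PDGFC, the ligand that was lower in the same cells. PCSK5 and PCSK6, proprotein convertases, were at least 2.28- and 1.3-fold higher (adjusted p = 0.00114 and 0.00128). ADAM9, a membrane sheddase, rose by 1.10 ± 0.32 (adjusted p = 0.0307). Leaving out GFP-positive replicate 2 gave ADAM9 an adjusted p of 0.132, and leaving out GFP-negative replicate 1 gave 0.123. On the log2 scale the sheddase ADAM10 fell by 1.55 ± 0.29 (adjusted p = 0.00486). RHBDF1, an iRhom related to the ADAM17 partner RHBDF2, fell by 2.16 ± 0.17, and the metalloproteinase inhibitor TIMP1 fell by 2.01 ± 0.21 (adjusted p = 5.68e-05 and 0.000264).

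Adaptors and SRC-family kinases, which dock on the receptor tails, gave 3 higher and 3 lower, and 12 of 18 tested did not pass, that is 33.3% called. Dropping GFP-negative replicate 2 gave 5 higher and 1 lower for the list, and dropping GFP-positive replicate 2 gave 1 lower. GAB2, a scaffold that links KIT and other receptors to PI3K and SHP2, showed the largest change, with log2 signal of 7.51 ± 0.59 in GFP-positive cells and 11.18 ± 0.20 in GFP-negative cells (12.7 times the signal in GFP-negative cells, adjusted p = 5.53e-05). Its relative GAB1 fell at least 1.15-fold to below detection (adjusted p = 0.0157). The RAS exchange factor SOS1 fell by 0.70 ± 0.23 on the log2 scale (adjusted p = 0.0462). FES, a cytoplasmic tyrosine kinase, rose by 1.49 ± 0.18 and the adaptor GRB7 by 1.05 ± 0.18 (adjusted p = 0.000569 and 0.00284). GRB2, which carries SOS to the receptors, rose by 0.81 ± 0.18 by 1 of its 2 tested probes (adjusted p = 0.0114). Leaving out 1 array ended 3 of these calls: GRB2 without either GFP-positive array (adjusted p = 0.0771 and 0.0544), GAB1 without GFP-positive replicate 2 or either GFP-negative array (0.142, 0.0594 and 0.0506), and SOS1 without either GFP-positive array or GFP-negative replicate 2 (0.158, 0.135 and 0.16).

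Effectors of the PI3K, PLC-gamma and STAT branches gave 6 higher and 1 lower of 10 tested. That is 70% called, against 42.6% of all tested genes. The median log2 difference was 0.88, and 0.79 with genes near background set at their bounds. JAK1, a kinase of cytokine receptors, was at least 7.46-fold higher (adjusted p = 6.81e-06), and JAK2 fell by 1.73 ± 0.30 on the log2 scale (adjusted p = 0.0031). STAT3, a transcription factor that both can activate, rose by 2.23 ± 0.19 at its brightest probe and was higher at all 3 tested probes (adjusted p = 9.28e-05). PLCG2, a phospholipase, rose by 2.17 ± 0.18 and PIK3R1, the regulatory subunit of PI3K, by 1.86 ± 0.17 (adjusted p = 7.9e-05 and 0.000136). The catalytic subunit gene PIK3CD was at least 1.93-fold higher, with 1 of 2 GFP-negative arrays detected (adjusted p = 0.00472). PIK3CB rose by 0.62 ± 0.19 (adjusted p = 0.0368). Its adjusted p was 0.107 and 0.2 when GFP-positive replicate 1 or 2 was dropped, and 0.137 when GFP-negative replicate 1 was. STAT5A and STAT5B, named after their values were seen as the STAT factors best known downstream of KIT, were detected on no array.

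Genes known to restrain these receptors gave 6 higher and 1 lower of 14 tested. That is 50% called, near the 42.6% of all tested genes. The median log2 difference was 0.57, and 0.55 with genes near background set at their bounds. ERRFI1, an inhibitor best known for EGFR, had log2 signal of 13.63 ± 0.18 in GFP-positive cells and 9.08 ± 0.12 in GFP-negative cells, a 23.4-fold difference (adjusted p = 2.4e-06). GRB10, an adaptor that dampens receptor signalling, was at least 8.15-fold higher by its brightest probe, and both tested probes rose (adjusted p = 0.000101). The phosphatases PTPN1 and PTPN6, the second of which binds KIT, rose by 1.59 ± 0.19 and 1.33 ± 0.18 on the log2 scale (adjusted p = 0.000559 and 0.00112). SOCS6, which binds activated KIT, was at least 1.67-fold higher (adjusted p = 0.00821). PTPN12 rose by 0.56 ± 0.19 (adjusted p = 0.0471). Its adjusted p was 0.145 and 0.228 when GFP-positive replicate 1 or 2 was dropped, and 0.164 when GFP-negative replicate 1 was. LRIG1, a membrane protein that promotes receptor loss, fell at least 3.77-fold, by both its tested probes (adjusted p = 0.000154).

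**Figure D3:**
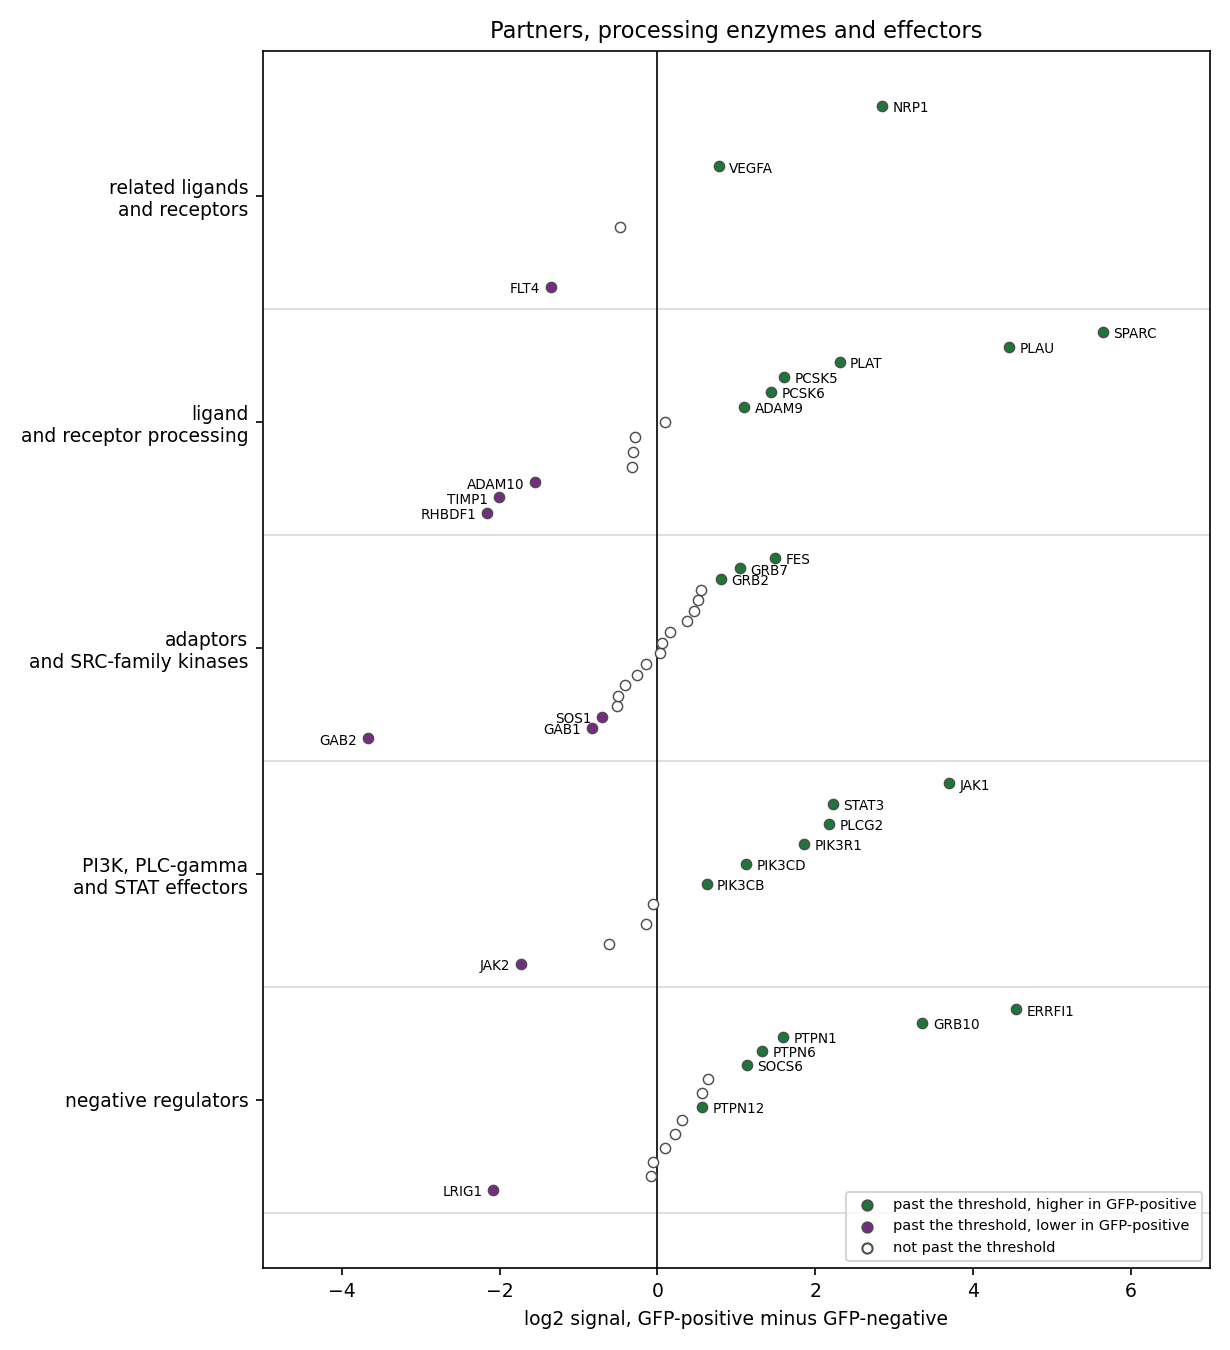
Log2 difference, GFP-positive minus GFP-negative, of the 59 tested genes of the 5 lists, each by its brightest tested probe. Green points passed an adjusted p of 0.05 as higher in GFP-positive cells, purple points as lower, and open points did not pass. SPARC, ERRFI1 and PLAU lie furthest right and GAB2 furthest left, and points of genes near background in 1 group are fitted values, not bounds.

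The genes whose pattern lay nearest to the 3 members with the largest differences were found by the Euclidean distance between mean-centred log2 values over the 4 arrays. Nearest to KITLG were SNTB1, SOX9 and GTSF1, at distances of 0.11, 0.14 and 0.23. Nearest to PDGFB were NCS1, PRXL2B and MTRF1L, at 0.03, 0.03 and 0.05. Nearest to PDGFC were GEMIN8, GTF3C6 and CTSO, at 0.06, 0.09 and 0.12. CTSO, a cathepsin gene, is also the protein-coding gene that precedes PDGFC on chromosome 4 in RefSeq's table. With 4 arrays in 2 groups, such a distance mostly reflects the size of the group difference.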

How the data were processed

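Biotin-labelled cRNA from 2 GFP-positive and 2 GFP-negative samples was hybridised to bead arrays, per the labels' protocols. The deposited intensity values are bead signals on a linear scale, not normalized per the file headers, with a deposited detection p-value for each. The submitters' processing notes name GenomeStudio 2009.2. Whether background was subtracted is not stated there. A deposited table of log2 values equals the quantile-normalized log2 signals to within 5e-09.

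Signals were processed with limma 3.58.1 in R 4.3.3: neqc (normexp from detection p, offset 16, quantile, log2), a filter that kept probes detected (p under 0.05) on both arrays of either group, and lmFit with eBayes, adjusted by Benjamini-Hochberg over 18098 probes and checked on simulated data. The 2 residual degrees of freedom and 5.31 prior ones carry the calls, since an exact permutation test of 2 against 2 cannot go below 0.333 (two-sided). Separate cultures are not named in the labels, so a p-value reflects the spread between these arrays only, and that spread may be technical. For bounds, each dim array took the lowest log2 value of any detected probe (6.09 to 6.17) or, if higher, the probe's own. They were also used, a choice made after the values were seen, where 1 of 2 arrays of the dim group was detected. A listed gene is its brightest tested probe. Symbols of 30072 of 30111 probes with 1 symbol were updated by gene ID to GRCh38.p14.

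Members and lists were chosen with earlier results of these data known. Named are all members, up to 6 called genes of each list in each direction, and the 3 nearest patterns of 3 members. The replicate number was taken as the shared day of isolation. Across tested probes, arrays that share a number deviated from their groups together with a correlation of 0.219. Alternatives covered background, offset, scaling, detection filter, the deposited values, the pairing and each array left out.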

Additional observations from a re-analysis of the deposited data

How the results depend on the processing

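Over the alternatives, the bound of the brightest KITLG probe ran from 28.8- to 97.1-fold and the log2 difference of PDGFC from -2.52 to -2.14, as a description, since these genes were chosen on the same values. Of the 32 named pathway genes, none changed direction, and 30 of 400 values, from 8 genes, lost the threshold. The 400 leave out settings in which a gene was no longer tested, as with detection on all arrays for genes below detection in 1 group. Member probes called higher numbered 6, and 2 with detection on all arrays, where no KITLG probe is tested because it is below detection in GFP-negative cells. They numbered 4 without background correction and without a detection filter, and 3 to 5 with an array left out, 3 being without GFP-positive replicate 1. Higher calls in all numbered 3394, and 2155 with detection on all arrays. Lower calls in all numbered 3928, and from 2292 without GFP-positive replicate 2 and 2523 without GFP-positive replicate 1 to 3788. With the replicate pairing as a block, calls in all were 3878 higher and 4593 lower, lower calls were 5 for adaptors and 2 for the PI3K and STAT list, and no other count moved by over 1.5 times. Without background correction, which gives the same values as the deposited table, lower calls were 2 for relatives and 2 for the PI3K and STAT list, and higher calls 5 for adaptors. An offset of 50 and 75th percentile scaling each gave 2 lower relatives and 2 lower genes of the PI3K and STAT list. Without a detection filter, relatives gave 1 higher and 0 lower (limma; 1 lower at an unadjusted p under 0.05), and adaptors 1 lower. With detection on all arrays, relatives gave 1 higher and 0 lower (limma; 1 lower unadjusted), processing genes 1 higher, and negative regulators 0 lower (0 unadjusted), since genes below detection in 1 group are not tested there. With a detection p under 0.01, relatives gave 0 lower (1 unadjusted), FLT4 not being tested. With an array left out, higher relatives ranged from 0 to 2, higher adaptors from 2 to 5 and lower adaptors from 1 to 2. The cause of the other shifts was not tested. Most receptor signals lie at or under the detection limit, so small receptor differences are not detectable here.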

Other observations

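PDGFC lay between neighbours that were lower in GFP-positive cells too. These genes were looked up after the pattern nearest to PDGFC had been seen. CTSO, on one side, had signals of 145 and 168 in GFP-positive cells, against 342 and 425 in GFP-negative cells, at least 3.29-fold lower. Its direction followed from its place among the patterns nearest to PDGFC, so this is a description with no test. GLRB, a glycine receptor subunit on the other side, had 119 and 131 in GFP-positive cells, against 3372 and 6139 in GFP-negative cells, at least 58.7-fold lower (limma, adjusted p = 1.93e-06). Neither gene was detected on a GFP-positive array, so both passed the detection filter only through GFP-negative cells. Both bounds are on the background-corrected scale and were not worked out without that correction. The adjusted p of GLRB is that of the fitted difference. Over all tested genes, 22.4% were called lower.

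The neighbours of the other measured ligands did not all follow them. DUSP6, a phosphatase of ERK next to KITLG, rose by 1.83 ± 0.18 on the log2 scale (limma, adjusted p = 0.000182), with signals of 2516 and 2840 in GFP-positive cells, against 843 and 1043 in GFP-negative cells. TMTC3, on KITLG's other side, had a log2 difference of 0.40 (limma, adjusted p = 0.352). Beside PDGFB, CBX7 fell by 1.10 ± 0.17 (limma, adjusted p = 0.0019) and RPL3 had a log2 difference of 0.30 (limma, adjusted p = 0.211). PRKAR1B, beside PDGFA, fell by 1.55 ± 0.18 (limma, adjusted p = 0.000416).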
